A study of Mus musculus with 16 samples.

Results

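Il6, Il6ra, Il6st, Stat3, Socs3, Jak1, Jak2, Lif and Osmr, the genes of interleukin 6 signalling, were followed in mouse skeletal muscle. All array probes whose RefSeq accession belongs to these 9 genes were taken, whatever their signal, which gave 10 probes on 20 spots. All 9 genes were among the 28972 genes that could be tested. Interleukin 6 is a cytokine that contracting muscle, macrophages and other cells release. It binds its receptor Il6ra, pairs with the shared signalling chain gp130, encoded by Il6st, and activates the kinases Jak1 and Jak2, which phosphorylate the transcription factor Stat3. Stat3 then induces Socs3, an inhibitor that blocks gp130 and the kinases, so the pathway limits itself. Lif is a cytokine of the same family, and Osmr is the receptor chain for oncostatin M, another member.

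RNA came from male mice 21 to 23 weeks old, in 4 groups of 4 biological replicates with 1 array each. The mice carried a loxP-flanked Cnr1 gene, which encodes the cannabinoid 1 receptor. CB1KO mice (Skm-CB1R-/-) lack it in skeletal muscle through Cre driven by the Acta1 promoter, and wild-type littermates (WT, Skm-CB1R+/+) were the controls. The breeding description gives both genotypes as Cre-positive, so genotype was taken from the sample titles. Mice ate a standard diet (SD, with 16.7% of its energy from fat and 12.4% from sugar) or a diet rich in fat and sugar (HFHS, 49.2% and 32.2%) for 15 weeks. The diet tag goes against the titles for CB1KO_SD and WT_HFHS, and the titles were followed. The labels speak of assignment to vehicle or S961, an insulin receptor antagonist, without saying which these mice received, and do not name the muscle.

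Values are log2 intensity minus the 75th percentile of the array, so 0 is the level that 75% of the spots lie below. At least 56.7% of the spots on each array were well above background. The SD of log2 signal was lowest on CB1KO_SD replicate 2 (2.89) and highest on CB1KO_HFHS replicate 1 (3.97). SD samples were hybridised on 1 slide and HFHS samples on another, with each genotype in its own row, so effects of diet and of slide cannot be told apart, and neither can those of genotype and of slide row. The muscle markers Acta1 and Ckm, skeletal actin and muscle creatine kinase, had group means between 8.22 and 9.66. The single Cnr1 probe had a log2 fold change of CB1KO against WT of -0.24 ± 0.46 (SE) on SD (limma, adjusted p = 0.932) and of -0.14 ± 0.46 on HFHS (adjusted p = 0.923). Whether that probe lies in the deleted part is not known, so it does not check the knockout. Cells of other types within the muscle also contribute RNA, and in bulk tissue fewer cells of a type and less RNA per cell cannot be told apart.

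Promoter sequence of Il6 and Socs3 is shown first because the levels of these 2 genes followed each other over the arrays. The sequences are from RefSeq (GRCm38.p6), which held all 9 genes. For Il6 the 250 bases before the start that the RefSeq promoter table uses are shown, at chr5:30012864-30013113 on the plus strand. For Socs3 only a STAT match with 10 bases on each side is shown, at chr11:117969502-117969530 on the minus strand, because its gene record reaches further upstream, to position 117970336, so the stretch lies within that record. Capitals mark motif matches, which are AP-1 and NF-kappaB in Il6 and STAT in Socs3.
Il6 promoter: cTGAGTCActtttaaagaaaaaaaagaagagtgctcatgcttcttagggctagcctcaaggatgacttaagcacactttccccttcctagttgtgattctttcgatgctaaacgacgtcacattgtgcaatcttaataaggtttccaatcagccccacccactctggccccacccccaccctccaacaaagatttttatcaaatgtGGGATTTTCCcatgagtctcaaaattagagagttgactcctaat
Socs3 STAT match: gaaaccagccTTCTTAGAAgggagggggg
For all 9 genes both strands were searched for 4 motifs in the 250 bases before the start in that table, and no matches overlapped. The STAT motif TTCNNNGAA was present in Socs3, 154 to 146 bases before the start, and in 7.02% of the 32851 mouse promoters in the table. The AP-1 motif TGANTCA was present in Il6, 249 to 243 bases before the start, in Lif, 228 to 222 bases before it, and in 6.75% of all promoters. The NF-kappaB consensus matched Il6 at 44 to 35 bases before the start, and 5.93% of all promoters. The CRE motif TGACGTCA was present in Jak1, 101 to 94 bases before the start, and in 1.55% of all promoters. These are matches of letters and do not show binding.

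Il6 itself was highest in CB1KO muscle on SD. On the 4 WT_SD arrays its level was -3.30, -2.70, -3.39 and -3.87, and on the CB1KO_SD arrays it was -1.77, -2.76, -0.95 and 0.98. On the WT_HFHS arrays it was -3.36, -3.41, -3.91 and -2.75, and on the CB1KO_HFHS arrays -3.44, -3.53, -3.52 and -2.14. Replicates 1, 3 and 4 of CB1KO_SD lay above every array of the other groups, whereas replicate 2 lay among them, so the groups overlapped. The probe was not well above background on CB1KO_SD replicate 2 and on WT_SD replicate 4, where the level is only a bound. The group means were -1.13 ± 1.59 (SD, n = 4) in CB1KO_SD, -3.16 ± 0.68 in CB1KO_HFHS, -3.31 ± 0.48 in WT_SD and -3.36 ± 0.47 in WT_HFHS. The last 3 of these lay closer together than their SDs.

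The difference in Il6 between CB1KO and WT on SD was 2.18 ± 0.61 (log2 fold change ± SE, 95% confidence interval 0.87 to 3.50), or 4.55-fold. It did not pass over all genes (limma, p = 0.00321, adjusted p = 0.317), and the exact two-sided permutation p was 0.0571, where 4 arrays against 4 cannot go below 0.0286. On HFHS the difference was 0.20 ± 0.61 (interval -1.12 to 1.52, adjusted p = 0.922). Averaged over the diets it was 1.19 ± 0.43 (adjusted p = 0.218). The test of whether the genotype difference itself differed between diets gave -1.99 ± 0.87 (limma, adjusted p = 1). With arrays weighted by their estimated quality, Il6 on SD passed at 2.85 (adjusted p = 0.0234), in a fit that called 534 genes in all instead of 1. Under every other alternative the adjusted p was between 0.051 and 0.81. Normexp background correction with quantile normalization took the difference to 1.42, and without CB1KO_SD replicate 4 it was 1.48.

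Socs3, the inhibitor that interleukin 6 signalling induces, had the same order of arrays at the top. Its level was 1.36, 2.42, 0.34 and 0.40 in WT_SD and 3.02, 1.60, 3.64 and 5.22 in CB1KO_SD. It was 0.65, 0.24, 0.12 and 1.16 in WT_HFHS and 0.56, -0.08, 0.65 and 2.17 in CB1KO_HFHS. Again replicates 1, 3 and 4 of CB1KO_SD lay above all other arrays and replicate 2 among the WT_SD ones, so the groups overlapped. The means were 3.37 ± 1.5 (SD, n = 4) in CB1KO_SD, 1.13 ± 0.98 in WT_SD, 0.83 ± 0.95 in CB1KO_HFHS and 0.54 ± 0.47 in WT_HFHS.

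On SD the genotype difference in Socs3 was 2.24 ± 0.69 (interval 0.76 to 3.72), or 4.72-fold (p = 0.00588, limma adjusted p = 0.338, exact permutation p = 0.0571). On HFHS it was 0.28 ± 0.69 (interval -1.20 to 1.76, adjusted p = 0.898). The average over the diets was 1.26 ± 0.49 (adjusted p = 0.244). The interaction was -1.96 ± 0.97 (limma, adjusted p = 1). Socs3 on SD passed with array weights, at 3.34 (adjusted p = 0.0235), and had adjusted p values between 0.0626 and 0.824 under the other alternatives. Without CB1KO_SD replicate 4 it was 1.62.

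**Figure D1:**
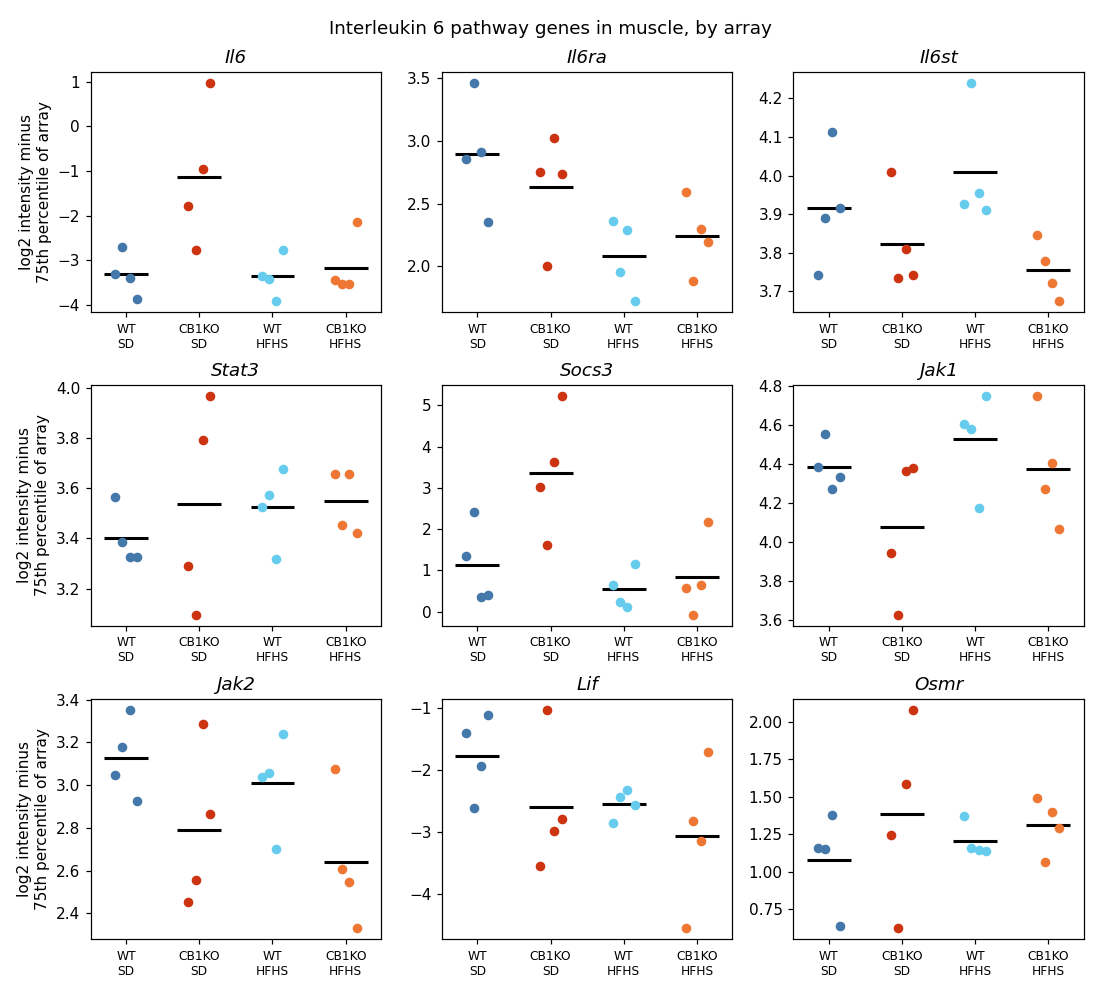
Level of each of the 9 genes on every array (log2 intensity minus the 75th percentile of the array, vertical axis), by group (horizontal axis). Points are arrays and lines are group means; each panel has its own axis range. Replicates 1, 3 and 4 of CB1KO_SD stand above the rest for Il6 and Socs3, with means of -1.13 and 3.37.

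Il6 and Socs3 followed each other from array to array. Over the 16 arrays Pearson r was 0.961 and Spearman rho 0.915, which made Socs3 the gene most like Il6 by either measure among 17301 other genes with a symbol. Without CB1KO_SD replicates 3 and 4, the arrays farthest from the median of Il6, r was 0.913 and rho 0.873 over 14 arrays. After the group means were taken out, r was 0.932. The array with the highest Il6 was also the one with the highest Socs3 in 4 of 4 groups, and the lowest array was the same in 3 of 4. The points share slides, the scaling of each array and the genotype groups, so r is a description.

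Next to Socs3, the genes with a pattern most like Il6 by Pearson r were Egr2 (r = 0.933), an immediate early transcription factor, and Sat1 (r = 0.929), an enzyme of polyamine breakdown. Arid5a, which encodes a protein known to stabilise Il6 mRNA in mouse macrophages, followed with r = 0.898, and Ccnl1, encoding cyclin L1, with r = 0.895. Spearman rho was lower for these 4 genes, from 0.685 for Arid5a to 0.835 for Egr2. By rho their ranks were 8 for Egr2, 25 for Ccnl1, 62 for Sat1 and 72 for Arid5a. For Socs3 the closest genes by Pearson r were Egr2 (r = 0.974), Il6, the zinc finger factor Klf6 (r = 0.918) and Arid5a (r = 0.914). With the arrays of unusual signal spread left out, Sat1 came first for Il6 and Socs3 second (r = 0.961).

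**Figure D2:**
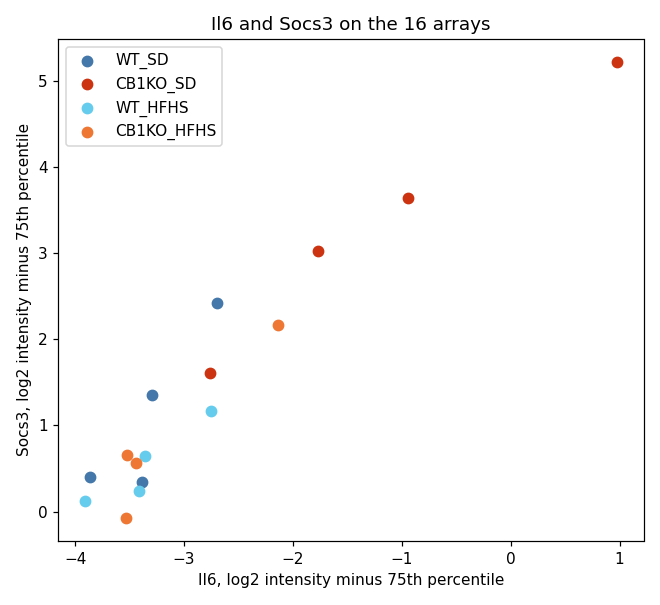
Il6 level (horizontal axis) against Socs3 level (vertical axis), both as log2 intensity minus the 75th percentile of the array, with 1 point per array coloured by group. The 16 points rise together (r = 0.961), with CB1KO_SD replicate 4 at 0.98 and 5.22.

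The other members followed Il6 less closely over all arrays. Pearson r with Il6 was 0.663 for Osmr and 0.537 for Stat3, and without CB1KO_SD replicates 3 and 4 it was 0.08 for Osmr and -0.22 for Stat3. Without the 2 arrays of unusual signal spread it was 0.804 for Osmr and 0.66 for Stat3. After the group means were taken out it was 0.77 for Osmr, 0.734 for Stat3 and 0.531 for Jak1. The CB1KO_SD arrays weigh most in these values, because that group had the widest spread in each gene. Its SD was 1.59 for Il6, 0.61 for Osmr, 0.41 for Stat3 and 0.36 for Jak1. CB1KO_SD replicate 2, with the lowest signal spread (2.89) and Il6 not well above background, was the lowest of its group for all of these genes. For Il6ra r was 0.326, and for Jak2, Jak1, Lif and Il6st it lay between -0.301 and -0.029.

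Lif, a cytokine that muscle also makes, was dim, with levels from -4.55 (CB1KO_HFHS replicate 1) to -1.03 (CB1KO_SD replicate 2), yet well above background on all 16 arrays. Those extremes fell on the arrays with the widest and the narrowest spread of log2 signal (SD 3.97 and 2.89). The genotype difference of Lif was -0.82 ± 0.58 on SD (interval -2.06 to 0.42, adjusted p = 0.752) and -0.52 ± 0.58 on HFHS (interval -1.76 to 0.73, adjusted p = 0.783). Groups overlapped on both diets. With 1 array left out, the SD value lay between -1.34 (without CB1KO_SD replicate 2) and -0.50 (without CB1KO_SD replicate 1). The HFHS value lay between -0.97 (without CB1KO_HFHS replicate 4) and -0.02 (without CB1KO_HFHS replicate 1).

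Il6ra, the chain that binds interleukin 6, stood at 2.86, 3.46, 2.91 and 2.35 in WT_SD and at 2.75, 2.0, 3.03 and 2.74 in CB1KO_SD. On HFHS it stood at 2.36, 1.95, 2.29 and 1.72 in WT and at 2.59, 1.88, 2.30 and 2.20 in CB1KO. The WT arrays on HFHS lay below those on SD except that WT_HFHS replicate 1 lay just above WT_SD replicate 4, and the genotypes overlapped on each diet. The genotype difference was -0.26 ± 0.26 on SD (adjusted p = 0.843) and 0.16 ± 0.26 on HFHS (adjusted p = 0.844). HFHS against SD in WT gave -0.81 ± 0.26 (interval -1.38 to -0.25), with p = 0.0077 but adjusted p = 0.648 (limma) and an exact permutation p of 0.0571. In CB1KO the same comparison gave -0.39 ± 0.26 (adjusted p = 0.663). Array weights took the value in WT past the threshold, at -0.87 (adjusted p = 0.0129), whereas the adjusted p lay elsewhere between 0.166 and 1.

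Il6st, encoding gp130, varied little between arrays. Its level was 3.74, 3.89, 4.11 and 3.92 in WT_SD, 4.01, 3.73, 3.81 and 3.74 in CB1KO_SD, 3.93, 4.24, 3.96 and 3.91 in WT_HFHS, and 3.85, 3.78, 3.72 and 3.67 in CB1KO_HFHS. On HFHS every WT array lay above every CB1KO array, and on SD the genotypes overlapped. The difference on HFHS was -0.25 ± 0.12 (interval -0.50 to -0.002), with p = 0.0485, adjusted p = 0.526 and an exact permutation p of 0.0286, the smallest that 4 against 4 can give and 1 of 36 such tests made on the members. On SD it was -0.09 ± 0.12 (interval -0.34 to 0.16, adjusted p = 0.886). With array weights the HFHS value passed, at -0.37 (adjusted p = 0.0436), whereas the other alternatives gave adjusted p values between 0.237 and 0.885. Of the 28972 genes, 10.1% had groups that did not overlap in this comparison, so 1 of 9 members is near the background.

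Osmr, the oncostatin M receptor, ranged from 0.62 (CB1KO_SD replicate 2) to 2.08 (CB1KO_SD replicate 4). Its genotype difference was 0.30 ± 0.25 on SD (interval -0.24 to 0.84, adjusted p = 0.805) and 0.11 ± 0.25 on HFHS (adjusted p = 0.891). With 1 array left out, the SD value lay between 0.07 (without CB1KO_SD replicate 4) and 0.56 (without CB1KO_SD replicate 2), and the HFHS value between 0.05 (without CB1KO_HFHS replicate 1) and 0.19 (without CB1KO_HFHS replicate 2).

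Of the kinases, Jak1 ranged over the arrays from 3.63 to 4.75 and Jak2 from 2.33 to 3.35. Jak1 had genotype differences of -0.31 ± 0.19 on SD (interval -0.72 to 0.11, adjusted p = 0.705) and -0.15 ± 0.19 on HFHS (adjusted p = 0.801). Jak2 gave -0.34 ± 0.20 on SD (interval -0.77 to 0.10, adjusted p = 0.684) and -0.37 ± 0.20 on HFHS (interval -0.80 to 0.07, adjusted p = 0.608). Averaged over the diets, Jak2 was -0.35 ± 0.14 (limma, adjusted p = 0.268). The median over all genes in that comparison was -0.13. With array weights Jak2 passed on HFHS (-0.51, adjusted p = 0.0414) and averaged (-0.43, adjusted p = 0.0296). Its adjusted p under the other alternatives was between 0.229 and 0.875 on HFHS and between 0.0759 and 0.443 averaged.

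Stat3, the transcription factor at the end of the pathway, had group means between 3.40 and 3.55 on its brighter probe. The level was 3.57, 3.39, 3.33 and 3.33 in WT_SD, 3.29, 3.10, 3.79 and 3.97 in CB1KO_SD, 3.52, 3.57, 3.32 and 3.68 in WT_HFHS, and 3.65, 3.45, 3.66 and 3.42 in CB1KO_HFHS. The CB1KO_SD arrays held both the highest and the lowest values, and all groups overlapped. The genotype difference was 0.13 ± 0.17 on SD (interval -0.24 to 0.51, adjusted p = 0.886) and 0.02 ± 0.17 on HFHS (interval -0.35 to 0.39, adjusted p = 0.967). The second Stat3 probe, for another transcript record, ranged from -2.08 to -0.64 and gave 0.10 ± 0.25 on SD and 0.25 ± 0.25 on HFHS. The probes disagreed on diet, with HFHS against SD in WT at 0.12 ± 0.17 on the first and -0.67 ± 0.25 on the second (limma, adjusted p = 0.764 over all probes). The arrays measure Stat3 mRNA and not its phosphorylation.

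**Figure D3:**
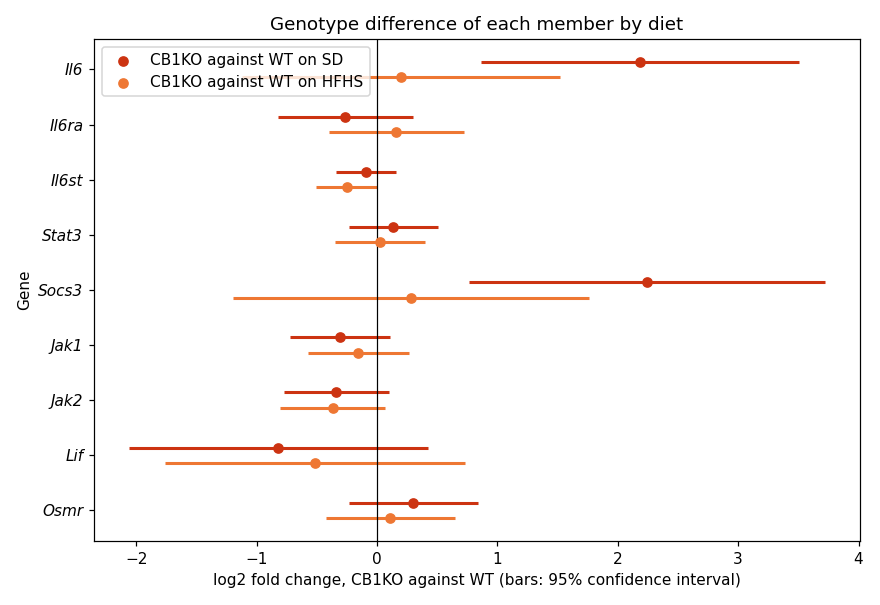
Log2 fold change of CB1KO against WT (horizontal axis) for each gene (vertical axis), on SD and on HFHS, with 95% confidence intervals from limma as bars. On SD the intervals of Il6 (0.87 to 3.50) and Socs3 (0.76 to 3.72) lie above 0, and on HFHS that of Il6st lies just below 0.

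Counted over the members, limma called 0 of 9 in each comparison at an adjusted p of 0.05. Of all 28972 genes it called 0.00345% (1) for CB1KO against WT on SD, 0.249% (72) on HFHS, 0.763% (221) averaged over diets and 0% for the interaction. At an unadjusted p under 0.05 stood 2 of 9 members on SD (Il6 and Socs3), where 9.03% of all genes did. On HFHS 1 member did (Il6st), with 9.4% of all genes. Averaged over diets 3 members did (Il6, Socs3 and Jak2), with 15% of all genes. For the interaction 1 member did (Il6), with 3.63% of all genes. Array weights called 2 members on SD, 2 on HFHS and 4 averaged, in fits that called 534, 2363 and 3014 genes. Members whose genotype groups did not overlap numbered 0 on SD, where 4.21% of all genes did not overlap.

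On SD 4 members had a log2 fold change above 0 and 5 below, with a median of -0.09 against -0.12 over all genes. On HFHS 5 were above and 4 below, with a median of 0.02 against -0.14.

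The diet comparisons share arrays with the genotype comparisons and so repeat part of what is given above. In CB1KO, HFHS against SD gave -2.03 ± 0.61 for Il6 (p = 0.00526, adjusted p = 0.262, exact permutation p = 0.0571) and -2.54 ± 0.69 for Socs3 (p = 0.00247, adjusted p = 0.22, exact permutation p = 0.0571). Without CB1KO_SD replicate 4 the Il6 value was -1.33. In WT the values were -0.05 ± 0.61 for Il6 and -0.59 ± 0.69 for Socs3 (adjusted p = 0.996 and 0.994). Limma called 0 of 9 members in either diet comparison, and 0.0276% of all genes in CB1KO and 0% in WT. In CB1KO 2 members (Il6 and Socs3) had an unadjusted p under 0.05, as had 9.59% of all genes. In WT 1 member (Il6ra) had one, as had 6.06% of all genes. The groups overlapped for all 9 members, while 5.39% of all genes in WT and 3.73% in CB1KO had groups that did not.

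The wider pathway was described with lists of related genes, with levels in the same unit. The lists were chosen with earlier results of these data known, and they include the 9 members. Of 8 cytokine genes of the interleukin 6 family 0 passed on either diet, and the median log2 fold change was -0.13 on SD and -0.15 on HFHS. Cntf, ciliary neurotrophic factor, had -0.57 ± 0.42 on SD and -0.73 ± 0.42 on HFHS, and Il27, a subunit of interleukin 27, had -0.23 ± 0.17 and -0.02 ± 0.17. Of 7 receptor genes 0 passed, with medians of -0.09 and -0.19. Cntfr, the receptor for ciliary neurotrophic factor, had -0.85 ± 0.43 and -0.80 ± 0.43, and Lifr, the Lif receptor chain, -0.22 ± 0.15 and -0.42 ± 0.15. Il11ra1, the interleukin 11 receptor chain, had 0.24 ± 0.18 and 0.05 ± 0.18. Of 14 genes for Janus kinases, STAT factors and adaptors 0 passed, with medians of 0.04 and 0.09. The paralogues Stat5b and Stat5a had opposite signs, with -0.35 ± 0.21 on SD and -0.33 ± 0.21 on HFHS for Stat5b and 0.25 ± 0.16 and 0.14 ± 0.16 for Stat5a. At an unadjusted p under 0.05 stood 1 cytokine gene, 0 receptor genes and 0 of the kinase, STAT and adaptor genes on SD. On HFHS the counts were 0, 2 and 2 in the same order. Of all genes 9.03% did so on SD and 9.4% on HFHS. The cytokine gene was Il6 itself, and Il6st was among the receptor genes on HFHS.

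Of 12 tested feedback inhibitors 0 passed, with medians of -0.05 on SD and -0.12 on HFHS. Socs1, which also inhibits Janus kinases, had 1.05 ± 0.43 on SD (adjusted p = 0.494) and -0.19 ± 0.43 on HFHS, while Socs2 had -0.32 ± 0.28 and -0.47 ± 0.28 and Socs5 0.26 ± 0.14 and -0.15 ± 0.14. Of 23 tested genes known as Stat3 targets 0 passed on SD, although 20 of 23 lay above 0, with a median of 0.40 against -0.12 over all genes. Junb, an AP-1 subunit, had 1.82 ± 0.65 (adjusted p = 0.426), Ccl2, a monocyte chemokine, 1.47 ± 0.51 (adjusted p = 0.409), Timp1, an inhibitor of matrix proteases, 1.5 ± 0.57 (adjusted p = 0.464) and Myc 0.73 ± 0.26 (adjusted p = 0.433). On HFHS 15 of 23 lay above 0 and the median was 0.20, with Timp1 at 1.57 ± 0.57 (adjusted p = 0.39) and Junb at 0.39 ± 0.65; 0 passed there too. Of 11 tested factors known to induce Il6, 0 passed on either diet, with medians of 0.12 and -0.09. Fosb, another AP-1 subunit, had 2.79 ± 1.04 on SD (adjusted p = 0.453), and Nfkbiz, an NF-kappaB cofactor needed for Il6 induction in mouse macrophages, 0.68 ± 0.23 (adjusted p = 0.391). The AP-1 subunit Jun had 0.65 ± 0.23 (adjusted p = 0.409), and Hsf1, the heat shock transcription factor, lay the other way at -0.39 ± 0.13 (adjusted p = 0.402). On HFHS these 4 genes had 0.66 ± 1.04, -0.09 ± 0.23, -0.32 ± 0.23 and -0.17 ± 0.13 in the same order. Unadjusted p values under 0.05 were held by 2 feedback inhibitors, 7 Stat3 targets and 6 inducing factors on SD and by 1, 1 and 0 on HFHS. Of all genes 9.03% and 9.4% held one. The member Socs3 was among the feedback inhibitors counted on SD. Because the lists were chosen with earlier results of these data known, these counts are a description.

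**Figure D4:**
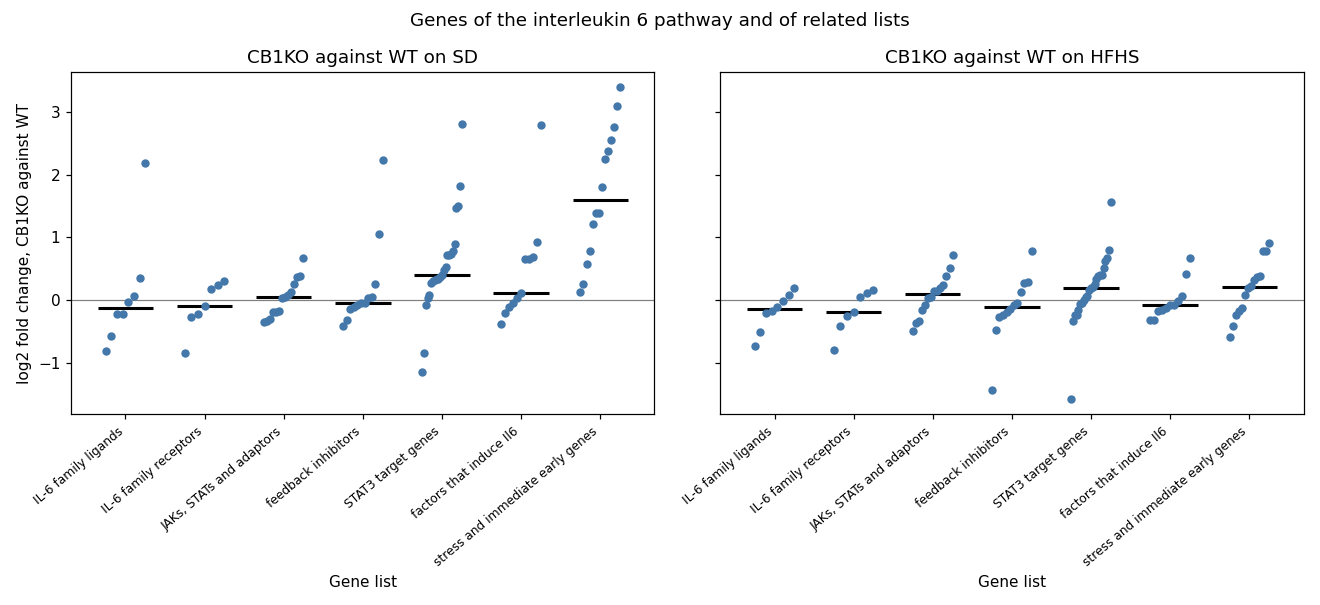
Log2 fold change of CB1KO against WT (vertical axis) on SD (left) and HFHS (right) for the tested genes of 7 lists (horizontal axis). Points are genes in order of value and lines are list medians, which on SD are 0.40 for Stat3 targets and 1.60 for stress and immediate early genes and lie between -0.13 and 0.12 for the other lists.

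Stress and immediate early genes were also read beside Il6. This list was chosen with earlier results of these data known, and it holds Egr2, named above for its likeness to Il6. All 14 tested genes lay above 0 on SD, with a median log2 fold change of 1.60, and 1 of them passed, the heat shock gene Hspa1a. Hspa1a was the only gene called on SD among all 28972 (0.00345%). Its level was -1.15, -1.05, -1.20 and -1.33 in WT_SD and 1.47, 2.50, 2.09 and 2.79 in CB1KO_SD, with no overlap, and the difference was 3.40 ± 0.39 (limma, adjusted p = 0.0155). The transcription factor Atf3, induced by many stresses, had 3.10 ± 0.65 (adjusted p = 0.203), Dnajb1, a heat shock co-chaperone, 2.25 ± 0.44 (adjusted p = 0.145) and Egr2 1.81 ± 0.45 (adjusted p = 0.259). On HFHS 9 of 14 lay above 0, with a median of 0.20, and 0 passed. Hspa1a also passed averaged over diets (1.58 ± 0.28, limma adjusted p = 0.0225), where 0.763% of all genes did. It passed for HFHS against SD in CB1KO too (-3.18 ± 0.39, limma adjusted p = 0.02), where 0.0276% of all genes did.

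The median level of the stress list was 1.93, 3.09, 3.21 and 3.47 on the CB1KO_SD arrays and -0.30 to 1.15 in WT_SD, -0.90 to 0.54 in WT_HFHS and -0.92 to 2.21 in CB1KO_HFHS. CB1KO_HFHS replicate 4, which held the highest Il6 and Socs3 of its group, also held its highest stress list median. CB1KO_SD replicate 2, in contrast, had a high stress list median and the lowest Il6 and Socs3 of its group. The Stat3 target median was 0.62, 0.18, 0.57 and 1.72 on the CB1KO_SD arrays and -0.27 to 0.37 in WT_SD, so these groups overlapped. Over the 16 arrays the stress list median had r = 0.819 (rho = 0.756) with Il6, and the Stat3 target median r = 0.835 (rho = 0.459). The part of the stress response in the Il6 and Socs3 values was not tested.

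**Figure D5:**
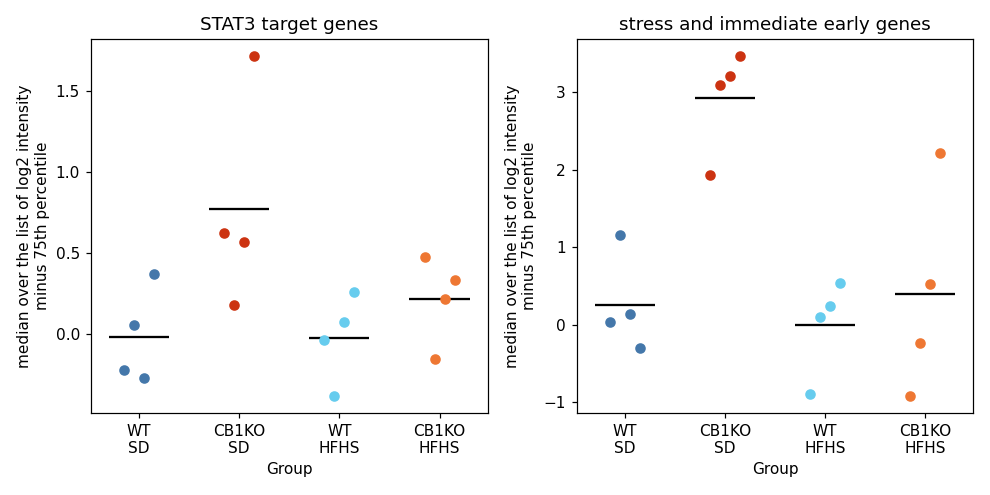
Median level of the tested Stat3 target genes (left) and stress and immediate early genes (right) on each array (vertical axis, log2 intensity minus the 75th percentile), by group. Lines are means of the 4 arrays. The CB1KO_SD arrays lie between 0.18 and 1.72 for the targets, overlapping WT_SD, and between 1.93 and 3.47 for the stress genes.

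Markers of other cells were read beside Il6, because immune cells also make it. Of 12 macrophage markers 8 lay above 0 on SD, with a median log2 fold change of 0.11, and 11 on HFHS, with a median of 0.69. The list median level was -0.19 to 1.73 in WT_SD, -0.28 to 1.16 in CB1KO_SD, -0.31 to 0.72 in WT_HFHS and 0.47 to 1.85 in CB1KO_HFHS, and it had r = -0.007 with Il6 over the arrays. Of 7 neutrophil markers 6 lay above 0 on SD, with a median of 0.71, and the list median level was -2.01 to -1.83 in WT_SD and -2.11 to 0.49 in CB1KO_SD. On HFHS 4 of the 7 lay above 0, with a median of 0.18. The neutrophil list median had r = 0.494 (rho = 0.338) with Il6. Of 6 adipocyte markers 0 lay above 0 on SD, with a median of -1.05, and 4 on HFHS, with a median of 0.23. Their list median level was -1.18 to 4.55 in WT_SD and -0.99 to 3.01 in CB1KO_SD. Summed levels are not given for these 3 lists, because on every array 1 bright probe made up the largest part of the sum. Of 14 muscle fibre genes 6 lay above 0 on SD, with a median of -0.14, and 3 on HFHS, with a median of -0.07. The 4 with the smallest p on SD, named after their values were seen, went both ways. Actn3, a fast fibre actinin, had -0.46 ± 0.15 (adjusted p = 0.36) and Ckm -0.31 ± 0.18 (adjusted p = 0.678). Tnni1, slow troponin I, had 2.44 ± 1.00 (adjusted p = 0.49) and Myh7, slow myosin heavy chain, 4.04 ± 2.13 (adjusted p = 0.621). On HFHS these 4 genes had -0.12 ± 0.15, -0.07 ± 0.18, 1.01 ± 1.00 and -2.09 ± 2.13 in the same order, so Myh7 changed sign. None of the 8 marker lists for cells in muscle held a gene that passed in the genotype comparison on SD or on HFHS. Over all genes 0.00345% and 0.249% passed, so a count of 0 is near the background. At an unadjusted limma p under 0.05 stood 0 of 12 macrophage markers on SD and 4 on HFHS. No other marker list held more than 2 such genes on either diet. Over all genes the shares were 9.03% and 9.4%. The part of these cells in the Il6 result was not tested.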

How the data were processed

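Total RNA (200 ng) was labelled with Cy3 and hybridised to 16 one-colour Agilent arrays, 4 per group, per the labels' protocols. The deposited scanner output was made with Feature Extraction 11.5.1.1, per the file headers, and gives spot intensities corrected for background and not scaled between arrays. The authors also deposited a table with a score for each spot, which was checked to equal each array's log2 processed intensity as a z-score, to within 0.005; its column medians were -0.27 to -0.15. It served as an alternative. How the authors assigned probes to genes is not given in the sources used here. Accessions in the scanner files gave 28026 of 55681 probes a RefSeq symbol.

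From the intensities, log2 values minus each array's 75th percentile over non-control spots were computed. Outlier spots (116 to 247 per array) were set to missing and repeated spots averaged. Probes were kept where well above background on at least 4 of 16 arrays, and the brightest probe was taken per gene. After these steps 0.0177% of the gene values were missing. The model of limma 3.58.1 (R 4.3.3), with 1 mean per group over all arrays, gave two-sided tests with Benjamini-Hochberg adjustment over 28972 genes and a threshold of 0.05. It was tested on simulated data. Single members were also compared by exact permutation of the arrays (36 tests, not adjusted). The members, lists and alternatives were chosen with earlier results of these data known. Named were all members, in each pathway list any gene past the threshold and otherwise the 4 with the smallest p value on SD, and the 5 genes most like Il6 and Socs3, of which 1 is not reported here. Alternatives were other background correction and scaling, the z-scores, other filters and probe rules, other variance models, array weights, replicate or slide blocks, only the groups compared, the spread of signal as covariate, and arrays left out. The number of arrays limits the precision.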

Additional observations from a re-analysis of the deposited data

Results flagged for a closer look

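Within groups of 4, 3 of the 36 sets of member values held an array far from the other 3 by Dixon's test, where chance flags about 1 in 20. Il6 was at -2.14 on CB1KO_HFHS replicate 4, while its group was otherwise at -3.53 to -3.44. Il6st was at 4.24 on WT_HFHS replicate 2, above 3.91 to 3.96 on the others. Osmr was at 1.37 on WT_HFHS replicate 1, above 1.14 to 1.16 on the others. Without that CB1KO_HFHS array the Il6 difference on HFHS was -0.14 in place of 0.20.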

How the results depend on the processing

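For 30 member fold changes, each recomputed under its alternatives to give 670 values in all, 647 kept their direction and their side of the threshold, 9 came to pass and 14 changed sign. All 9 that came to pass did so with array weights, which called 2 members on SD (Il6, Socs3), 2 on HFHS (Jak2, Il6st), 4 averaged over diets and 1 (Il6ra) for HFHS against SD in WT, with 0 in the fit reported. No other alternative called a member, and leaving out each array in turn called 0. The sign changes concerned values near 0. Il6 for HFHS against SD in WT was 0.078 with normexp and quantile normalization, 0.26 with quantile normalization and 0.25 with the z-scores. Stat3 on HFHS was -0.0087 with array weights, -0.012 without the 2 arrays of unusual spread and -0.014 with the SD of log2 signal as covariate. With 1 array left out, Il6 ran from -0.14 to 0.40 on HFHS and from -0.25 to 0.16 for diet in WT, Socs3 on HFHS from -0.16 to 0.58, Stat3 on HFHS from -0.044 to 0.075 and on SD from -0.0082 to 0.28. For Il6 on SD this range was 1.48 to 2.73, for Socs3 on SD 1.62 to 2.83, and the Il6 interaction was -1.29 without CB1KO_SD replicate 4.

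Counts over all genes depended on the setting: 0 to 534 on SD, 15 to 2363 on HFHS, 59 to 3014 averaged, 0 to 50 for the interaction, 0 to 1618 for diet in WT and 0 to 77 in CB1KO, against 1, 72, 221, 0, 0 and 8. The upper ends came with array weights. A filter on all 16 arrays left Il6 out, and the slide block applied only to the averaged comparison. Arrays with the same replicate number, which is also the slide column, did not pair throughout. Of 24 pairs 8 had deviations with r over 0.1 (range -0.754 to 0.609). In 6 the best correlation was with the own number, out of the 4 arrays of the other group. Among these, replicate 1 of CB1KO_HFHS had r = 0.48 with that of CB1KO_SD and 0.43 with that of WT_HFHS. Replicate 2 of CB1KO_SD and CB1KO_HFHS had r = 0.609. Other pairs went the opposite way, such as replicate 2 of WT_SD with that of CB1KO_SD (r = -0.754) and of CB1KO_HFHS (r = -0.537). With a replicate block 0 members passed, Il6 on SD had adjusted p = 0.407, and 1, 36 and 59 genes passed on SD, on HFHS and averaged. The Il6 probe was not well above background on 2 of the 16 arrays, which limits the precision of its low values.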
